A study of Mus musculus with 2 samples.

Results

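The genes described here encode enzymes that build haem and the inducible enzyme that breaks it down: Alas1, Alas2, Alad, Uros, Urod, Cpox, Ppox, Fech and Hmox1. They were chosen by gene symbol, as genes with at least 1 probe set that the array's annotation assigns to that gene alone. All 9 listed genes had such a probe set, out of 8251 genes with one on the array, and they were read by 12 probe sets in all. Mouse RNA was measured on 2 single-colour Affymetrix arrays, replicates 1 and 2 of a single group without treatment. Both samples were titled liver and described as total liver RNA of 1 catalogue item bought from Clontech, whereas their source field said spleen; strain, sex, age and the number of animals were not given. Nothing in the labels says that the samples came from separate animals, so their spread may be technical. With 1 group there was no comparison to test, and no p-value was computed.

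Haem is an iron-bearing porphyrin made in every nucleated cell, and the liver and the red cell precursors of the marrow make the most. Synthesis begins in the mitochondrion, where 5-aminolevulinate synthase joins glycine to succinyl-CoA. It continues in the cytosol and ends in the mitochondrion, where ferrochelatase inserts iron. In liver much of the product goes into cytochrome P450 enzymes, and haem represses the housekeeping synthase Alas1. Haem oxygenase opens the ring to biliverdin, carbon monoxide and iron, and biliverdin is then reduced to bilirubin and excreted in bile.

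Signal is given in the arbitrary linear units of the deposited table, as the mean ± SD of 2 arrays. Background was set at the 95th percentile of 98 measured genes of brain, testis, retina, lens and striated muscle, which was 476.2 on replicate 1 and 452.3 on replicate 2. Of those 98 genes 5 were above it on both arrays, a count largely fixed by the choice of percentile. Of all named genes, 30.4% were above it on both. Hepatocyte markers were above it in 14 of 14 cases, and lymphoid and spleen markers in 2 of 21, which were Zap70 and Ighm. Between liver and spleen, the gene levels thus went with the titles and against the source field. Other tissues were not examined by a marker list. The pancreatic enzyme genes Ctrb1, Cela1 and Clps were above background on both arrays, at percentiles 99.5, 96.3 and 94.7. The part of pancreas or other tissue in the RNA was not tested. Probe brightness depends on probe sequence, so a percentile places a gene within the arrays' signal and does not rank transcript abundance between genes.

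Of the 9 haem enzymes, 7 (77.8%) were above background on both arrays, beside 30.4% of all named genes. Those 7 were Alas1, Alas2, Alad, Uros, Urod, Cpox and Hmox1, and the 2 that were not were Ppox and Fech, the last enzymes of the synthesis. The median percentile of the 9 was 85.2, beside 50 for all named genes by construction. It was 84.4 on replicate 1 and 86.0 on replicate 2. By compartment, 3 of 3 cytosolic enzymes and 3 of 5 mitochondrial enzymes of the synthesis were above background. When all sets of a gene were averaged in place of taking its brightest set, Urod was also not above it, and with a threshold at the 99th percentile neither Uros nor Urod was.

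**Figure D1:**
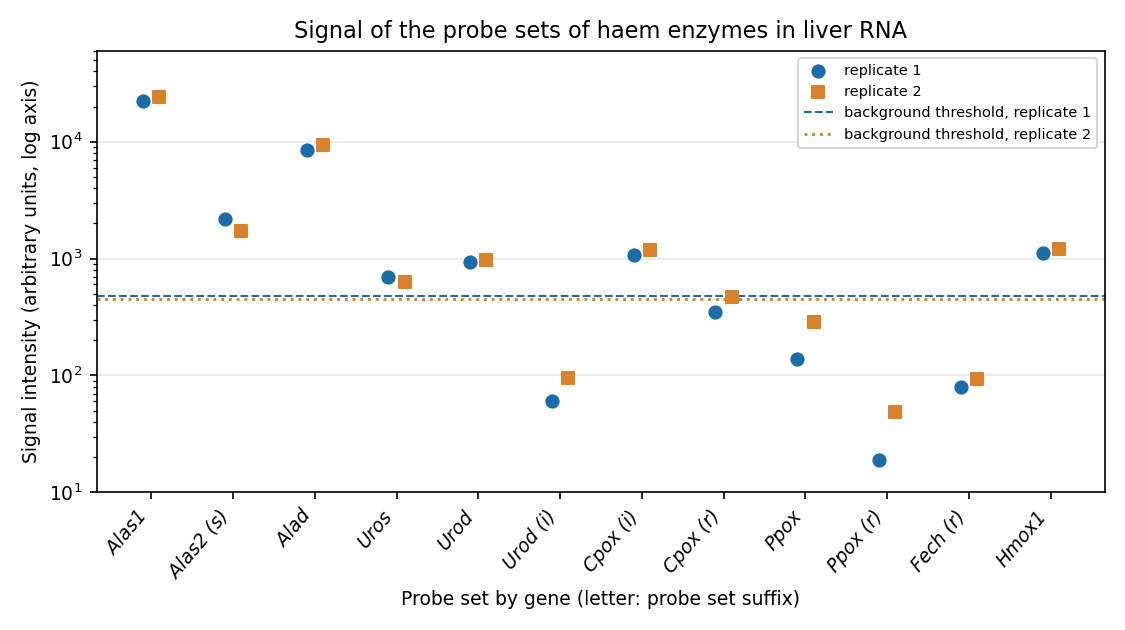
Signal on a log axis for each of the 12 probe sets of the haem enzymes, on replicate 1 (circles) and replicate 2 (squares), with the background threshold of each array as a horizontal line; letters after a name are probe set suffixes. Alas1 and Alad lie highest, 7 sets lie above both lines, and the sets of Ppox and Fech lie below them.

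Alas1 encodes the form of 5-aminolevulinate synthase found in most tissues, which catalyses the first and rate-limiting step of haem synthesis in liver. Its single probe set gave 22285 on replicate 1 and 24056 on replicate 2, or 23171 ± 1252. This was 46.8 and 53.2 times the background threshold. Only 38 of the 8251 genes had a higher mean signal, and its percentile was 99.5 on replicate 1 and 99.6 on replicate 2. The arrays differed by a factor of 1.08 for this gene, with replicate 2 the higher. A stretch of the Alas1 promoter is shown because it holds the palindrome bound by nuclear respiratory factor 1, a regulator of mitochondrial genes. It lies between the 2 transcription starts that RefSeq annotates for the gene (GRCm38.p6, chr9:106247906-106247935, minus strand), with the match in capitals.
Alas1: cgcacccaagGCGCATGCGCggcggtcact
The match begins 195 bases before the downstream start. It consists of the half-site GCGCA followed at once by its reverse complement, TGCGC, so it reads alike on both strands, and the same motif was found in 0.782% of the 32851 promoter windows of the table.

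Alas2 encodes the synthase of red cell precursors, whose gene is activated by GATA1 and whose messenger is controlled by iron. Its probe set, of the suffix s that marks probes shared by similar transcripts, gave 2164 on replicate 1 and 1730 on replicate 2, or 1947 ± 306.7. The signal was 4.54 and 3.83 times the threshold, and the percentile was 92.0 and 89.9. Alas2 was 1 of 2 haem enzymes with a lower signal on replicate 2, and its coefficient of variation of 15.8% was the largest among the 7 enzymes above background. The median coefficient was 6.11% over all genes above background. Its log2 difference, replicate 2 minus replicate 1 after removal of the median shift, was -0.29, where the SD of this difference over the 825 brightest genes was 0.16. The promoter is shown for the GATA element in it, which is in capitals and read on the minus strand (RefSeq, GRCm38.p6, chrX:150547167-150547416, plus strand, the 250 bases before the start).
Alas2: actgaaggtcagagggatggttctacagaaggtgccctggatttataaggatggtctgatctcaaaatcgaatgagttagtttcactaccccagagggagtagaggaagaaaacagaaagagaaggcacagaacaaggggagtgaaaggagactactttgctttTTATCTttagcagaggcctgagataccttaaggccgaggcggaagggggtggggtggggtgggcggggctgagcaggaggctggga
The element begins 86 bases before the start, and 2 overlapping matches to the CACCC motif of erythroid Krüppel-like factors begin 40 and 35 bases before it. A match to the TATA motif (TATAAA) begins 209 bases before the start. That motif was found in 1 of the 10 windows of 7 enzymes, this one, and in 12.4% of all windows.

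Markers of red cell precursors were examined beside Alas2. Of 18 measured, 4 (22.2%) were above background on both arrays, beside 30.4% of all named genes. The 4 were the globin genes Hba-a1 (24492 ± 589.4) and Hbb-b2 (6258 ± 357.7), the transferrin receptor Tfrc and the ankyrin Ank1 (562.9 ± 41.15). The transferrin receptor, which carries iron into the cell, gave 2382 on replicate 1 and 887.2 on replicate 2 in the brighter of its 2 probe sets. Such a gap was rare: of 2508 genes above background on both arrays, 2 differed by over 2-fold, and Tfrc was 1 of them. Of the globin genes, Hba-a1 was higher on replicate 2 by a factor of 1.03, and Hbb-b2 gave a ratio of 0.922. The erythroid regulators Gata1 (169.8 and 49.6) and Klf1 (234.2 and 367.8), the erythropoietin receptor Epor (222.5 and 265.2) and the red cell anion exchanger Slc4a1 (92.7 and 157.7) were not above background. The lowest was the blood group gene Rhd (38.8 ± 6.788). Of the 18 markers, 8 were higher and 10 lower on replicate 2, with a median log2 difference of -0.04. A difference of over 2-fold was found for 4 of the 18, beside 14.1% of all named genes. Apart from Tfrc these were not above background: Gata1, Epb42 (41.7 and 210.3) and Tal1 (72.6 and 29.3). Their summed signal, most of it from Hba-a1, was 35225 on replicate 1 and 34256 on replicate 2. The part of red cells or their precursors in the Alas2 signal was not tested. In RNA of a whole tissue, fewer cells of a type and less RNA per cell cannot be told apart.

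The cytosolic enzymes follow. Alad, 5-aminolevulinate dehydratase, joins pairs of the first product into porphobilinogen and is the enzyme that lead poisoning inhibits. It gave 8472 on replicate 1 and 9329 on replicate 2, or 8901 ± 606.0, at percentiles 97.9 and 98.2. Uros, uroporphyrinogen III synthase, closes the ring and is deficient in congenital erythropoietic porphyria. It gave 697.7 and 624.8 (661.2 ± 51.55), which is 1.47 and 1.38 times the threshold, so it lay nearest to the threshold among the 7, and it was the other enzyme lower on replicate 2. Urod, uroporphyrinogen decarboxylase, is the enzyme whose loss of activity in liver gives porphyria cutanea tarda. Its plain probe set gave 938.5 and 973.5 (956.0 ± 24.75), the smallest coefficient of variation of the 9 enzymes at 2.59%. Its other set, of the suffix i that marks a set with fewer probes, gave 61.0 and 95.4. The sets of Urod thus disagree: 1 was above background on both arrays and the other on neither.

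The promoters of Alad and Urod are shown in part for an E-box, CACGTG, the palindrome bound by upstream stimulatory factors and other helix-loop-helix proteins, which is in capitals. The pieces come from RefSeq (GRCm38.p6, minus strand): for Alad before the upstream of its 2 starts at chr4:62520149-62520178 and before the downstream one at chr4:62519918-62519947, and for Urod at chr4:116994443-116994472.
Alad, upstream start: tccgaatgccCACGTGgaccccctcgggcc
Alad, downstream start: gccccgccccCACGTGggcttgcgctttta
Urod: ctggatcggtCACGTGgttctcaatatggc
The E-box begins 105 and 28 bases before the starts of Alad and 49 bases before that of Urod. In Uros it was found at the far edge of 1 of 2 windows, 250 bases before the start. Of the 10 windows of 7 enzymes, 4 held the E-box, and 6.02% of all 32851 windows did.

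The last enzymes of the synthesis are mitochondrial. Cpox, coproporphyrinogen oxidase, gave 1071 on replicate 1 and 1172 on replicate 2 (1122 ± 71.98) in a set of suffix i, 2.25 and 2.59 times the threshold. Its other set, of the suffix r for probes chosen with some design rules dropped, gave 351.2 and 471.9 and so passed the threshold on replicate 2 alone. Both sets were higher on replicate 2. The Cpox promoter is shown because it, like that of Alas2, holds a GATA element at 86 bases before the start, again read on the minus strand and in capitals (RefSeq, GRCm38.p6, chr16:58669958-58670207, plus strand).
Cpox: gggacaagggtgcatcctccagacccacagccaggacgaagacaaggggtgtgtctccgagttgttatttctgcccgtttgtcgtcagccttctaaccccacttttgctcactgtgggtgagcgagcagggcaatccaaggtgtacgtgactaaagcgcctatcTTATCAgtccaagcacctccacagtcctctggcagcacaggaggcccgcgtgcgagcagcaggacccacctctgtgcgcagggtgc
The GATA element was searched as AGATAA or TGATAA on both strands. It was found in 3 of the 10 windows, those of Alas2 and Cpox and 1 of Uros, and in 16.6% of all windows.

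Ppox, protoporphyrinogen oxidase, is the enzyme deficient in variegate porphyria. Its plain probe set gave 137.2 on replicate 1 and 287.3 on replicate 2 (212.2 ± 106.1), below the threshold on both. Its set of suffix r gave 18.9 and 49.1. Both sets were higher on replicate 2, and the percentile of the gene moved from 37.7 to 56.9. Fech, ferrochelatase, inserts iron into protoporphyrin and is deficient in erythropoietic protoporphyria. It was read by a single set of suffix r, which gave 80.4 and 93.0 (86.7 ± 8.91), or 0.169 and 0.206 times the threshold. Fech is described as not above background in that set, which does not show that its transcript is absent from liver.

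Hmox1, the inducible haem oxygenase, gave 1108 on replicate 1 and 1214 on replicate 2 (1161 ± 74.88), at 2.33 and 2.68 times the threshold and at percentiles 84.8 and 86.3. As for Alas1, Alad, Urod and Cpox, replicate 2 was the higher, here by a factor of 1.10. Hmox2, the constitutive haem oxygenase, gave 165.8 and 233.6, and Blvra, the biliverdin reductase that makes bilirubin, gave 246.2 and 150.3, neither above background. Kupffer cells, the liver macrophages, also carry haem oxygenase when they clear old red cells, so their markers were set beside Hmox1. Of 16 macrophage markers 9 (56.2%) were above background, beside 30.4% of all named genes. They were led by C1qc (2763 ± 314.8), Clec4f (2511 ± 146.9), a lectin of Kupffer cells, and C1qa (2464 ± 109.5), like C1qc a complement gene. The scavenger receptor Marco was the lowest of the 16 at 23.6 and 18.8. Of the 16 markers, 5 were higher and 11 lower on replicate 2, with a median log2 difference of -0.17. Several of the lower ones, such as Marco, were not above background. The brightest markers went both ways, with log2 differences of 0.26 for C1qc, 0.15 for Clec4f and -0.06 for C1qa. That of Hmox1 was 0.16. Their summed signal was 15083 on replicate 1 and 14956 on replicate 2. The part of macrophages in the Hmox1 signal was not tested.

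The arrays differed little for the enzymes above background. After removal of the median shift, their differences lay between a factor of 1.06 for Urod and 1.23 for Alas2. Of the 9 enzymes, 7 were higher and 2 lower on replicate 2, beside 4200 higher and 4051 lower of all 8251 named genes. Among the 825 brightest genes of the array, which hold Alas1, Alas2 and Alad, 69.9% were higher on replicate 2. In the 4 bands of signal that hold the other 6 enzymes, between 47.4% and 53.5% were. A difference of over 2-fold was found for 1 of the 9, Ppox, at 2.13-fold. It was found for 14.1% of all named genes, and for 7.39% of the genes in the band of signal that holds Ppox. Among genes above background on both arrays it was found for 0.0797%, and for 0 of the 7 enzymes. The Ppox difference was 1.92-fold when 32 was added to each value before taking logarithms. Each side of these differences is a single array, so none of them is backed by replicates.

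**Figure D2:**
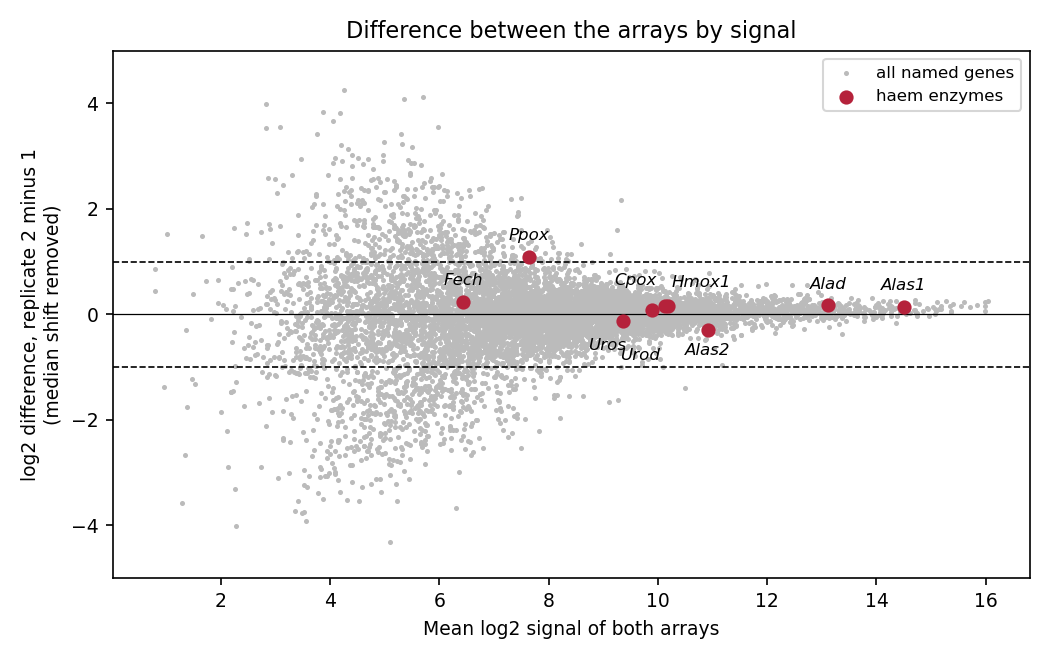
Log2 difference between the arrays, replicate 2 minus replicate 1 after removal of the median shift, against the mean log2 signal, for all 8251 named genes (grey) and the 9 haem enzymes (red, named); dashed lines mark 2-fold. The spread narrows as signal rises, Ppox lies just past the upper line at 2.13-fold, and the other enzymes lie between the lines.

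Other genes of haem handling were counted from lists, to be read beside the 30.4% of all named genes above background. Of 13 measured genes of haem and porphyrin transport, mitochondrial import and related steps, 7 (53.8%) were above background, and the median percentile of the list was 76.0. They were led by Pgrmc1 (12374 ± 248.4), a haem-binding membrane protein that interacts with ferrochelatase and P450 enzymes, Tspo (4617 ± 650.9), an outer mitochondrial membrane protein that binds porphyrins, and the haem-binding protein Hebp1 (3385 ± 215.0). The mitochondrial transporter Abcb10 gave 101.8 and 160.0, and the lowest was Flvcr2 (39.8 and 108.0). Of 9 genes of haem and haemoglobin scavenging, breakdown and bilirubin handling, 7 were above background, all but the breakdown enzymes Hmox2 and Blvra. The list's median percentile was 95.7. The brightest were the plasma proteins Hp (43648 ± 3553), which binds free haemoglobin, Hpx (37024 ± 1318), which binds free haem, and Ambp (26912 ± 52.54), the precursor of a small haem-binding protein.

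Of 20 regulators, 7 (35.0%) were above background, near the 30.4% of all named genes, at a median percentile of 63.8 for the list. These included the liver factors Cebpa (10053 ± 691.5) and Hnf4a (1528 ± 104.7), the xenobiotic receptor Nr1i3 (4084 ± 450.7), Nfe2l2 (750.4 ± 55.08), which activates Hmox1, and the haem-binding clock repressor Nr1d1 (664.0 ± 145.7). Bach1, the haem-sensitive repressor of Hmox1, passed on replicate 1 (501.6) and missed the threshold on replicate 2 (319.9). Ppargc1a, a coactivator that raises Alas1 in fasting, gave 74.5 and 48.0, and the lowest was Keap1 at 36.1 and 12.9, the protein that holds the Nfe2l2 product in check. Of 30 proteins that carry haem, 22 (73.3%) were above background, and their list had a median percentile of 93.9. They were led by the P450 enzymes Cyp2e1 (49701 ± 5023) and Cyp2d10 (31281 ± 1475) and by Tdo2 (34790 ± 715.9), the haem enzyme that opens tryptophan, while Cat, catalase, gave 5548 ± 313.7. The lowest was the eosinophil peroxidase Epx at 6.7 and 4.9.

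**Figure D3:**
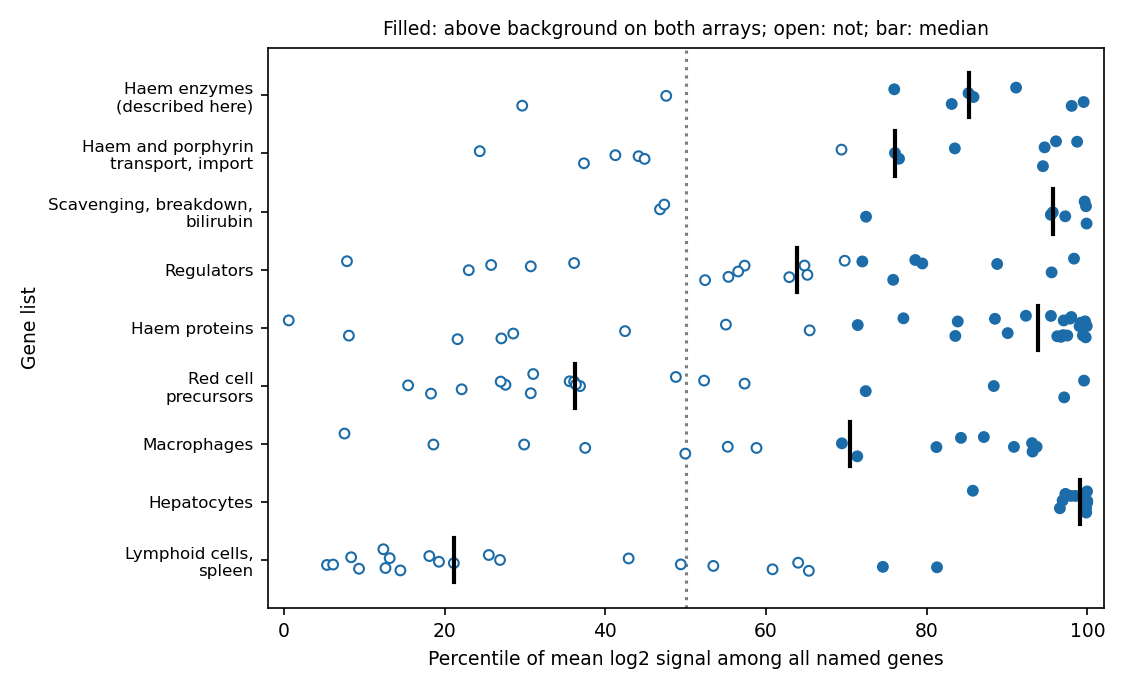
Percentile of the mean log2 signal among all 8251 named genes, for each measured gene of 9 lists; filled points were above background on both arrays, open points were not, and bars are list medians. The haem enzymes have a median of 85.2, between those of the haem transport list (76.0) and the haem proteins (93.9), and the red cell precursor markers one of 36.2.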

How the data were processed

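The deposited table gives a linear signal intensity for each probe set on each array. How the authors summarised and scaled it, and with what software, is not stated in the labels or the file. The mean after trimming 2% of the values at each end was 500.5 on both arrays. Of 12488 probe sets, 66 controls, 396 that name several genes and 1193 that name none were left out, which kept 10833. Symbols come from the platform annotation; 10817 of its identifiers matched RefSeq (GRCm38.p6) and 0 symbols changed. Where a gene had several probe sets, the brightest by mean log2 signal stood for it. No coordinates were matched to probes. A median log2 shift of -0.03 between arrays was removed for differences. Mb, myoglobin, stands in both the background and the haem protein list. Gata1, Klf1 and Nfe2 stand in both the regulator and the red cell precursor list. Hpx stands in both the scavenging and the hepatocyte list. Bands of signal are 10 equal bins of genes.

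The rule for named genes took all haem enzymes, from each list the lowest and the 3 highest, and a fixed set of related genes. Some of that set, such as Blvrb, Abcb6, Slc25a37, Ugt1a1, Hbb-b1 and Cd163, were not analysed here. Epor, Ank1, Epb42, Tal1 and the pancreatic genes Ctrb1, Cela1 and Clps were named after their values were seen. The hepatocyte, lymphoid and background lists are given by counts, apart from Zap70 and Ighm. Members and lists were chosen with earlier results of these data known. Promoter windows from RefSeq cover 250 bases before a start, for 7 of the 9 enzymes; motifs were chosen from what is known of these genes and searched on both strands. Beside the shares given in the report, the GC box (GGGCGG) was found in 6 of the 10 windows and 32.7% of all. The CCAAT box (CCAAT) was found in 4 and 33.8%, and the CACCC motif (CCNCACCC) in 3 and 14.9%. The windows of the Alad starts overlap, and CCAAT and GC box matches in the shared stretch count in both. The steps were tested on simulated data with equal noise at every signal, changes only in genes above the median signal, and the dimmest genes as background. That test does not cover differences at low signal, such as that of Ppox, or the background list used here. The work was done in Python 3.11.15 with pandas 2.3.3, numpy 2.4.6, matplotlib 3.10.9 and scipy 1.17.1.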

Additional observations from a re-analysis of the deposited data

How the results depend on the processing

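The count of haem enzymes above background on both arrays was 7 of 9. It was 7 with quantile normalization (30.4% of all named genes), with a threshold at the 90th percentile (37.5%) and on replicate 1 (31.9%) or replicate 2 (32.7%) alone. It was 6 when all sets of a gene were averaged (32.5%), 5 with a threshold at the 99th percentile (16.1%), and 5 of 6 measured when suffixed probe sets were left out (36.7%). The median percentile was 85.2; it was 81.4 when all sets were averaged, and ran from 84.4 to 86.0 with either array left out. Ppox was the 1 enzyme over 2-fold, and 0 were with log2(value + 32), which shrinks the differences of low signals. Of the other genes of haem metabolism 43 of 72 were above background, beside 30.4% of all named genes. The count ran from 32 with the 99th percentile threshold (16.1% of all) to 47 with the 90th (37.5%) or with averaged sets (32.5%), and was 46 of 70 without suffixed sets (36.7%). The mean signals of Urod, Cpox and Ppox moved by more than the spread between the arrays when their sets were averaged. No paired analysis was possible because there is 1 group. Signal near background limits Ppox and Fech, and 2 arrays limit the precision of every value.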
